A study of Mus musculus with 19 samples.

Results

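Lysosomal enzymes and membrane proteins of the mouse ovary were followed across the first year of adult life. The set held 30 genes, each taken as the row of the count table whose symbol equals the gene's name. Each had 1 row, so 30 of the 36172 genes in the table were members, and all 30 were among the 15518 genes with enough counts to test. They were grouped by role into 9 cathepsins, 2 other peptidases, 7 glycosidases, 6 enzymes and activators of lipid breakdown, 5 membrane proteins and the transcription factor gene Tfeb.

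RNA-seq libraries came from whole ovaries of female C57BL/6 mice, an inbred strain, aged 3, 6, 9 or 12 months, with 5, 5, 5 and 4 libraries. The groups differed in age and shared strain and sex, and the labels give no treatment or altered gene. Whether libraries of an age are from separate mice is not stated in the labels, so the p-values reflect spread among libraries, some of which may be technical. Replicate numbers only name libraries and pair nothing between ages.

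Lysosomes are acidic organelles in which hydrolases break down proteins, glycans and lipids delivered by endocytosis, phagocytosis and autophagy. Most hydrolases are carried from the Golgi by mannose 6-phosphate receptors, the proton pump called V-ATPase keeps the lumen acidic, and heavily glycosylated proteins such as LAMP1 and LAMP2 line the membrane. TFEB is a transcription factor that, when released from mTORC1 at the lysosomal surface, enters the nucleus and activates many lysosomal genes through an E-box of the CLEAR type in their promoters. In the ovary, lysosome-rich cells include macrophages, which clear dead follicle cells and regressing corpora lutea, and steroid-making cells, which use the lysosomal acid lipase to free cholesterol from lipoproteins.

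Letters of the CLEAR element were looked for in RefSeq promoters of GRCm38.p6 (mm10), each covering 250 bases before to 50 bases after an annotated start. A promoter was found for 26 of the 30 genes; there was none for Asah1, Ctsb, Ctsh and Npc1. Letters TCACGTG, the core of the CLEAR element read on either strand, were present in 9 of the 26 (34.6%), against 4.29% of the 27025 genes with such a promoter. The palindrome TCACGTGA, which holds that core on both strands, was present in 5 of the 26 (19.2%), against 1.12% of all. The shorter E-box CACGTG, which lies inside both, was present in 11 of the 26 (42.3%), against 8.09%. These are matches of letters and not binding sites shown to be used. The members were chosen as lysosomal genes, and the element is known from promoters of such genes. A higher share among them is therefore not a result of these libraries. The share beside it is over all genes with such a promoter, not only those tested for expression. The stretches below show how the matches are spaced, written from the 5′ end on the strand of the gene, with every match to TCACGTG on either strand in capitals. Mcoln1 and Lamp1, the membrane protein genes that rose at both 9 and 12 months, are given for the 250 bases before the start, at chr8:3500269-3500518 (plus strand) and chr8:13158911-13159160 (plus strand). Shorter stretches are given for Ctsd at chr7:142387898-142387957 (minus strand), Ctsa at chr2:164833759-164833788 (plus strand), Cln3 at chr7:126583339-126583368 (minus strand), Gla at chrX:134601186-134601245 (minus strand) and Glb1 at chr9:114400998-114401057 (plus strand).
Mcoln1: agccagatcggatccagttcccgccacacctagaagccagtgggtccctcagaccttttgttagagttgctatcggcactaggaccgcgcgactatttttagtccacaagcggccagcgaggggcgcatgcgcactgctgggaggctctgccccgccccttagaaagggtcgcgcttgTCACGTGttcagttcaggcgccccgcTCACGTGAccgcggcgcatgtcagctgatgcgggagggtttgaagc
Lamp1: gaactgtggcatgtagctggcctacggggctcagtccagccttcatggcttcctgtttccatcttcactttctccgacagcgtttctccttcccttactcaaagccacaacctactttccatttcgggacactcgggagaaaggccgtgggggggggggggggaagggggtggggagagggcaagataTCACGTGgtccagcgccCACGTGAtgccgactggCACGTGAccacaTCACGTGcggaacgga
Ctsd: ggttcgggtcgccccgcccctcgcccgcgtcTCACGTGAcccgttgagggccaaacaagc
Ctsa: gTCACGTGAtgcagatgcTCACGTGAccag
Cln3: acgggtactgTCACGTGAcccccaacctgc
Gla: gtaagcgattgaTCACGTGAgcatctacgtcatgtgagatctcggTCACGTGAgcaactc
Glb1: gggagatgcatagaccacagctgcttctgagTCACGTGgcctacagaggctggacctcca
Mcoln1 held 2 separate places with the core and Lamp1 held 4, all within the last 72 bases before the start. Gla and Ctsa held the palindrome at 2 places each, and Glb1 held the core once. Gaa and Lgmn, not printed, held it once each. Ctsd and Cln3 each held a further match of 7 bases outside the stretch printed, from -245 to -239 and from -149 to -143. For Ctsa, Cln3 and Lgmn the annotated start used lies inside the gene.

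**Figure D1:**
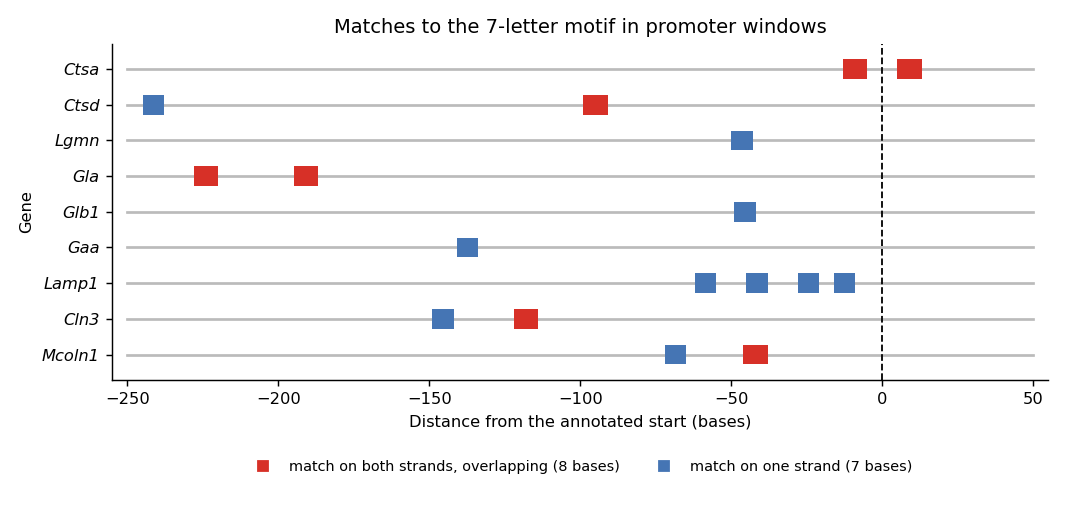
Position of each match to the core letters in the promoters of the 9 members that held one, in bases from the annotated start (dashed line). For Ctsa, Cln3 and Lgmn that start lies inside the gene. Red boxes are palindromes of 8 bases matched on both strands, blue boxes are matches of 7 bases on a single strand, and most matches of Lamp1, Mcoln1, Glb1 and Lgmn lie within 72 bases before the start.

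Library totals ran from 10851519 to 14302207 estimated counts. Pairs of libraries within an age all differed beyond counting noise (chi-square per degree of freedom of 4.99 to 37.65), and each was counted as its own replicate. Values below are CPM, counts scaled to a fixed library total. The tissue label was checked by ovarian markers: a list of 10 granulosa cell genes summed to 1212 to 4097 CPM and 10 oocyte genes to 17.6 to 472 CPM over the 19 libraries. A list of 8 oviduct genes summed to 1868 to 6483 CPM, so the check does not show that the libraries were free of oviduct. The oocyte factor Gdf9 averaged 18.05 CPM in 12 month ovaries, against 63.2 CPM in 3 month ovaries. Cr2, a B cell and follicular dendritic cell receptor gene used here as a lymph node marker, reached 12.5 CPM in replicate 2 of the 12 month libraries, and 6.17 and 10.7 CPM in replicates 1 and 2 of the 9 month libraries, against at most 0.80 CPM in the other libraries.

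Between 12 and 3 months, 9 of the 30 lysosomal genes rose and 1 fell by edgeR's quasi-likelihood test with Benjamini-Hochberg adjustment over all 15518 genes at a threshold of 0.05. Over all genes tested, 10.9% rose and 11.5% fell. The genes that rose were Ctsb, Ctsh, Ctss, Ctsz, Neu1, Lipa, Lamp1, Mcoln1 and Tfeb, and the gene that fell was Ctsl. The median log2 change of the 30 was 0.20, against 0.02 over all genes, and 27 of the 30 changes were above 0; adjusted for the length and GC content of genes, the median was 0.12 and 23 were above 0. Between 9 and 3 months, 20 members rose and 2 fell, where 11.3% of all genes rose and 13.6% fell, and the median log2 change was 0.30, against 0.01 over all genes. These comparisons share the 3 month libraries. Of the members, 19 had their highest mean at 9 months, 6 at 12 months, 2 at 6 months (Gla and Npc1) and 3 at 3 months (Ctsf, Ctsl and Cln3). In bulk tissue, more cells of a type and more RNA per cell cannot be told apart.

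**Figure D2:**
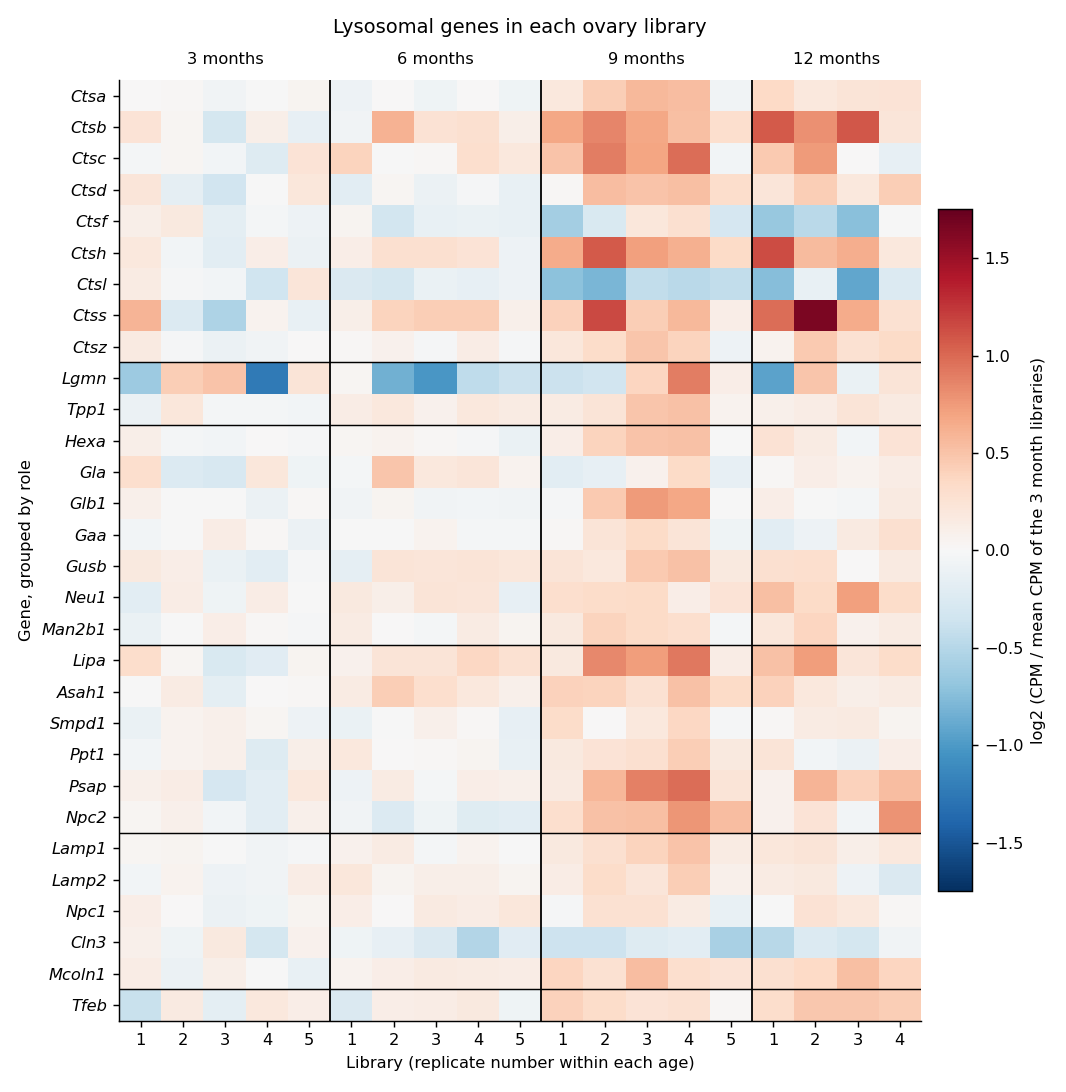
Level of the 30 genes in each of the 19 libraries as log2 of CPM over the mean CPM at 3 months (colour), with genes grouped by role in rows and libraries by age in columns. Most rows are red at 9 and 12 months, Ctsl and Cln3 are blue at 9 months, and 9 month replicates 2, 3 and 4 are redder than replicate 5.

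The count for 12 months turned on single libraries: 5 members rose without 12 month replicate 2 and also 5 without 3 month replicate 3. In those fits 9.95% and 7.52% of all genes rose, against 10.9% with all libraries. Leaving out each library in turn gave 5 to 12 rising members at 12 months, with 6.92% to 12.0% of all genes risen, and 14 to 22 at 9 months. In 12 month libraries every value stood above every 3 month value for 5 members (Ctsa, Lamp1, Mcoln1, Neu1 and Tfeb), which held for 6.74% of all genes. For 0 members did every 12 month value lie below, which held for 9.73% of all genes. In 9 month libraries 7 members stood wholly above the 3 month values (Asah1, Ctsb, Ctsh, Lamp1, Mcoln1, Npc2 and Ppt1; 5.54% of all genes) and 1, Ctsl, wholly below (9.46%).

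Other settings ended some calls too. At 12 months the adjustment for length and GC content ended those on Ctsl (log2 change -0.42), Ctsz (0.12), Lamp1 (0.11) and Tfeb (0.22), and fitting these ages alone those on Ctsl and Tfeb. Ctsz, Lipa and Lamp1 did not pass by either limma fit or without the 3 libraries over 5 CPM of Cr2, Lipa and Lamp1 did not pass with no filter on low counts, and Lamp1 did not pass with DESeq2's size factors. At 9 months the adjustment ended the calls on Ctsz (0.20), Gusb (0.26), Neu1 (0.19) and Man2b1 (0.16), and leaving out the Cr2 libraries those on Ctsb (0.53), Neu1 (0.25), Man2b1 (0.22) and Cln3 (-0.30). Ctsz, Neu1, Lamp2 and Cln3 did not pass at 9 months by limma on the authors' log2 values, nor did Ctsz, Glb1 and Man2b1 with these ages fitted alone.

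Among the 9 cathepsins, the proteases that carry out most lysosomal protein breakdown, 4 rose and 1 fell at 12 months, and 6 rose and 1 fell at 9 months. Over all genes, 10.9% rose and 11.5% fell at 12 months, and 11.3% and 13.6% at 9 months. Ctsb, a cysteine protease with endopeptidase and dipeptidyl carboxypeptidase activity, lies on chromosome 14 from 63122462 to 63145923. It had 2224, 1836, 2231 and 1215 CPM in 12 month ovaries, against 1244, 1078, 854, 1130.0 and 957 CPM in 3 month ovaries. Replicates 1 to 3 at 12 months were above all 3 month values and replicate 4 lay among them. The log2 change was 0.83 ± 0.17 (SE; edgeR adjusted p = 0.00318), a 1.78-fold higher level. In 9 month ovaries Ctsb had 1687, 1906, 1688, 1523 and 1291 CPM, all above the 3 month values, for a log2 change of 0.62 ± 0.16 (edgeR adjusted p = 0.00862).

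Ctsh, an aminopeptidase, had 208, 138, 146 and 106.5 CPM in 12 month ovaries, against 107, 90.7, 82.4, 102 and 87.1 CPM in 3 month ovaries. Here too 12 month replicate 4 lay within the 3 month values, and the log2 change was 0.67 ± 0.16 (edgeR adjusted p = 0.00698). Ctss, known for degrading the invariant chain of MHC class II in antigen-presenting cells, had 215, 341, 170.4 and 131 CPM in 12 month ovaries, against 164, 92.2, 74.8, 114 and 99.8 CPM in 3 month ovaries. Replicate 2 at 12 months was far above the rest, and 12 month replicate 4 lay below 3 month replicate 1. Its log2 change of 0.98 ± 0.26 (edgeR adjusted p = 0.0138) was the largest of the 30 at 12 months, and it was 0.66 and lost the call without 12 month replicate 2. At 9 months the log2 change of Ctss was 0.58 ± 0.25 (edgeR adjusted p = 0.093), and it passed the test without 3 month replicate 1, without 9 month replicate 5 or without 12 month replicate 2. Ctsz, a carboxypeptidase, averaged 157 ± 17.6 CPM in 12 month ovaries (SD, n = 4) and 129 ± 9.25 CPM in 3 month ovaries (SD, n = 5). Its log2 change at 12 months, 0.28 ± 0.09 (edgeR adjusted p = 0.0358), lost the call without 3 month replicate 2, 3, 4 or 5 and without 12 month replicate 2, 3 or 4 (0.22 to 0.30 in those fits).

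Ctsl, a cysteine endopeptidase that is among the most abundant lysosomal proteases, went the other way. It had 634, 971, 565 and 900.4 CPM in 12 month ovaries, against 1174, 1049, 1034, 835 and 1228 CPM in 3 month ovaries. Replicates 2 and 4 at 12 months overlapped the lowest 3 month value, and replicates 1 and 3 lay below all of them. The log2 change was -0.47 ± 0.14 (edgeR adjusted p = 0.0242), and the call was lost without 3 month replicate 1 or 5 and without 12 month replicate 1 or 3 (-0.43 to -0.34 in those fits). In 9 month ovaries it had 645, 609, 786, 766 and 793 CPM, all below the 3 month values, and the log2 change of -0.56 ± 0.13 (edgeR adjusted p = 0.00526) kept its call in all 19 fits that left out a library. Ctsl lies on chromosome 13 from 64361890 to 64370772.

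Ctsf, another cysteine protease, averaged 70.4 ± 17.2 CPM in 12 month ovaries (SD, n = 4) and 95.3 ± 9.23 CPM in 3 month ovaries (SD, n = 5). Its log2 change of -0.44 ± 0.16 did not pass (edgeR adjusted p = 0.0617), though it did without 9 month replicate 1 or 4 or 12 month replicate 4. Ctsa, a serine carboxypeptidase that also shields NEU1 and beta-galactosidase from degradation, had 180.0, 161, 165 and 166 CPM in 12 month ovaries, against 142, 143, 136, 140.0 and 146 CPM in 3 month ovaries. Although these groups did not overlap, the log2 change of 0.25 ± 0.09 just missed the threshold (edgeR adjusted p = 0.0505), and it passed in each fit that left out a 9 month library. The aspartic protease gene Ctsd, with a log2 change of 0.32 ± 0.11 (edgeR adjusted p = 0.0509), was as near to it and passed without 3 month replicate 1 or 5 or 9 month replicate 1. At 9 months Ctsa rose by 0.35 ± 0.08 (log2), Ctsd by 0.39 ± 0.11 and Ctsz by 0.28 ± 0.09. Ctsc, a dipeptidyl peptidase that activates granule proteases of immune cells, rose by 0.65 ± 0.18 at 9 months (edgeR adjusted p = 0.0136), while at 12 months its log2 change was 0.32 ± 0.19 (edgeR adjusted p = 0.239). The 9 month call on Ctsz was lost without replicate 2, 3 or 4 of either age (0.21 to 0.28), and those on Ctsa, Ctsb, Ctsc, Ctsd and Ctsh were kept in all 19 fits.

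Of the other peptidases, neither passed at 12 months. Tpp1, which removes tripeptides from protein ends, averaged 152 ± 21.8 CPM in 9 month ovaries and 124 ± 10.2 CPM in 3 month ovaries (SD, n = 5 each) and rose by 0.30 ± 0.08 (log2; edgeR adjusted p = 0.00974). Lgmn, which cuts after asparagine and matures several cathepsins, varied most between libraries of the 30 genes at 3, 6 and 9 months. It had 121, 324, 212 and 268 CPM in 12 month ovaries, against 148, 310.5, 327, 97.7 and 268 CPM in 3 month ovaries. Both ages covered the same range, and the log2 change at 12 months was 0.00 ± 0.36, with a 95% interval of -0.71 to 0.72.

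**Figure D3:**
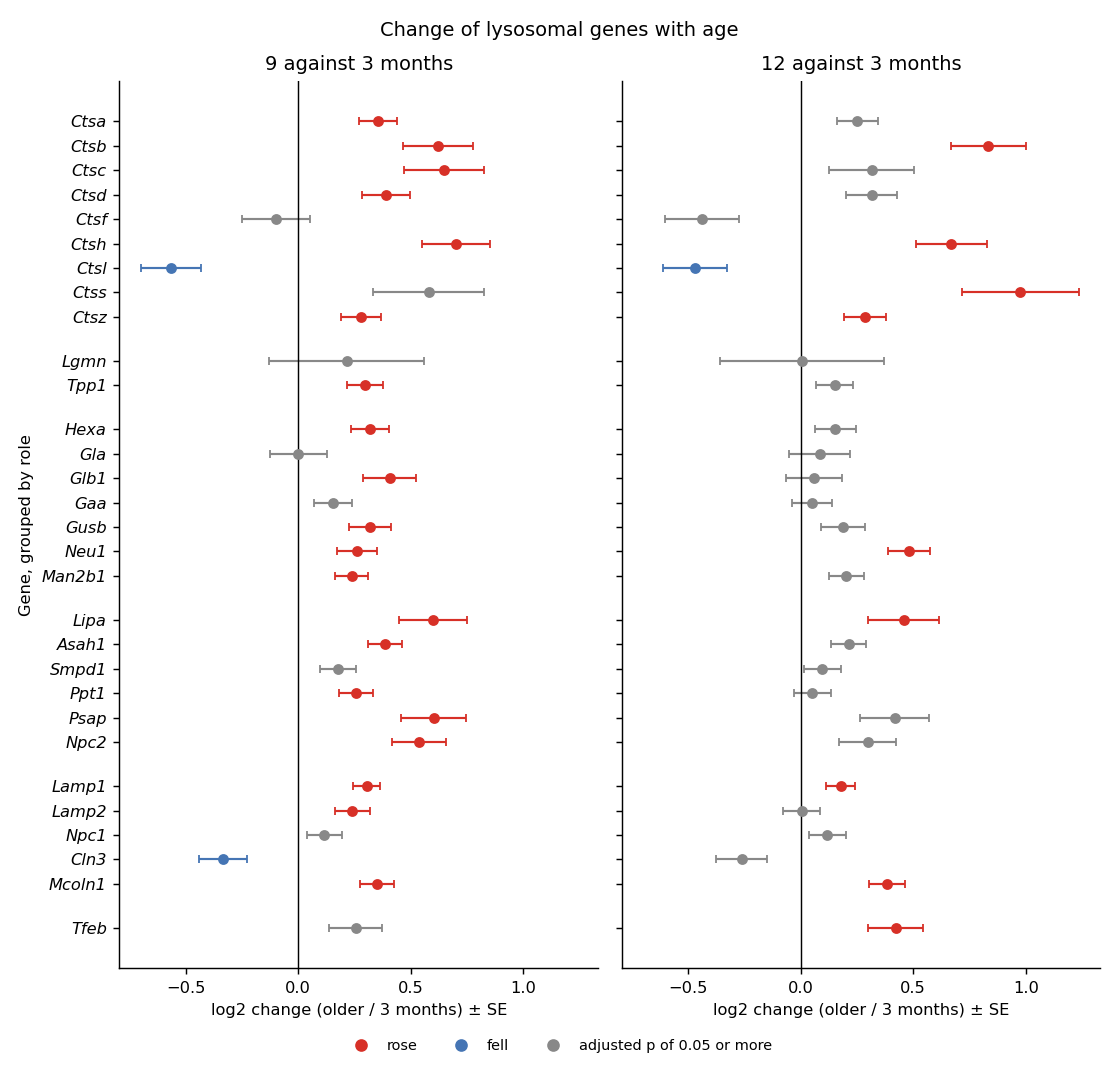
Change in level of each of the 30 genes at 9 months (left) and 12 months (right) against 3 months, as log2 change ± SE from edgeR, in rows grouped by role. Red genes rose, blue genes fell and grey genes had an adjusted p of 0.05 or more. At 9 months 20 genes rose and 2 fell, and at 12 months 9 rose and 1 fell.

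Of the 7 glycosidases, which remove sugars from glycoproteins and glycolipids, 1 rose at 12 months and 5 rose at 9 months, and none fell at either age. Over all genes, 10.9% rose at 12 months and 11.3% at 9 months, so the count at 12 months is near that share. The gene that rose at both was Neu1, the lysosomal sialidase, on chromosome 17 from 34931253 to 34937297. It had 50.4, 43.9, 57.1 and 43.5 CPM in 12 month ovaries, against 30.7, 38.0, 33.1, 38.1 and 34.6 CPM in 3 month ovaries, with no overlap. Its log2 change of 0.48 ± 0.09 had the smallest adjusted p of the 30 at 12 months (edgeR adjusted p = 0.00255) and was 0.40 to 0.53 over the 19 fits that left out a library. At 9 months it was 0.26 ± 0.09 (edgeR adjusted p = 0.0375), and leaving out 3 month replicate 1, 3 or 5, or 9 month replicate 2 or 3, ended the call (0.23 to 0.27 in those fits).

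The glycosidase genes that passed at 9 months and not at 12 months were Hexa, Glb1, Gusb and Man2b1, and a test of 12 against 9 months, given further on, called no member. Glb1 encodes the beta-galactosidase whose activity is widely stained as a marker of senescent cells. It had 53.7, 74.4, 90.95, 87.2 and 54.1 CPM in 9 month ovaries, against 57.9, 54.2, 54.0, 50.5 and 55.3 CPM in 3 month ovaries. Replicates 2, 3 and 4 at 9 months were above all 3 month libraries and replicates 1 and 5 lay among them. The log2 change of 0.41 ± 0.12 (edgeR adjusted p = 0.0165) was 0.30 and lost the call without 9 month replicate 3. At 12 months Glb1 had 59.1, 54.1, 53.0 and 60.6 CPM, which overlapped the 3 month values, and the log2 change was 0.06 ± 0.12 with a 95% interval of -0.18 to 0.30.

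Hexa, the alpha subunit of beta-hexosaminidase, rose by 0.32 ± 0.09 (log2) at 9 months (edgeR adjusted p = 0.0115). Gusb, the beta-glucuronidase, rose by 0.32 ± 0.09 (edgeR adjusted p = 0.0183) and Man2b1, the lysosomal alpha-mannosidase, by 0.24 ± 0.07 (edgeR adjusted p = 0.0249). The call on Gusb was lost without 9 month replicate 3 (0.27), and that on Man2b1 without 3 month replicate 1 or 9 month replicate 2 or 3 (0.21 to 0.22). At 12 months the log2 changes were 0.15 ± 0.09 for Hexa, 0.19 ± 0.10 for Gusb and 0.20 ± 0.08 for Man2b1, of which only Man2b1 passed in a fit that left out a library, 9 month replicate 5. Gla, the alpha-galactosidase, and Gaa, the glycogen-cleaving acid alpha-glucosidase, passed at neither age, with log2 changes of 0.08 ± 0.14 and 0.05 ± 0.09 at 12 months.

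Among the 6 genes of lipid breakdown, 1 rose at 12 months and 5 rose at 9 months, and none fell. The shares of all genes risen were 10.9% and 11.3%, and the count at 12 months is near that share. Lipa, the acid lipase that frees cholesterol from the esters of endocytosed lipoproteins, had 135, 158, 109 and 118 CPM in 12 month ovaries, against 117, 96.8, 78.6, 82.5 and 98.4 CPM in 3 month ovaries. Only 12 month replicate 3 lay within the 3 month values. The log2 change was 0.46 ± 0.16 (edgeR adjusted p = 0.0458), and 13 of the 19 fits that left out a library lost the call (0.35 to 0.49), the exceptions being those without 3 month replicate 1, 9 month replicate 1, 2, 4 or 5, or 12 month replicate 3. At 9 months Lipa rose by 0.60 ± 0.15 (edgeR adjusted p = 0.00801) and kept the call in all 19.

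Psap, the precursor of the saposins that present sphingolipids to their hydrolases, was the member with the highest level per length. It had 1682, 2251, 2780.0, 2960.0 and 1764 CPM in 9 month ovaries, against 1600.0, 1656, 1236, 1330.0 and 1719 CPM in 3 month ovaries. Replicates 2 to 5 at 9 months exceeded every 3 month library and replicate 1 did not. The log2 change was 0.60 ± 0.14 (edgeR adjusted p = 0.0062). At 12 months it was 0.42 ± 0.15 (edgeR adjusted p = 0.0566), and it passed without 9 month replicate 1, 4 or 5 or 12 month replicate 1.

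Npc2, the soluble protein that hands cholesterol to NPC1, had 258, 298.5, 301, 358 and 305 CPM in 9 month ovaries, against 215, 223, 202, 184 and 224 CPM in 3 month ovaries. The groups did not overlap, and the log2 change was 0.54 ± 0.12 (edgeR adjusted p = 0.00335). At 12 months, with 219.9, 248, 203 and 360.3 CPM, it was 0.30 ± 0.13 (edgeR adjusted p = 0.0936), and it passed only without 12 month replicate 3. Asah1, the acid ceramidase, had 284, 279.5, 257.5, 307 and 271 CPM in 9 month ovaries, against 212, 237, 190.0, 215 and 216 CPM in 3 month ovaries. Again every 9 month library was higher, for a log2 change of 0.38 ± 0.07 (edgeR adjusted p = 0.00124). Its log2 change at 12 months was 0.21 ± 0.08 (edgeR adjusted p = 0.0568), which passed without 3 month replicate 2, 6 month replicate 2 or 9 month replicate 4. Ppt1, which strips palmitate from proteins, rose by 0.26 ± 0.08 (log2) at 9 months (edgeR adjusted p = 0.0208) and had a log2 change of 0.05 ± 0.08 at 12 months. The sixth gene, Smpd1, the acid sphingomyelinase, had log2 changes of 0.18 ± 0.08 at 9 months (edgeR adjusted p = 0.105) and 0.10 ± 0.08 at 12 months, and passed at 9 months only without 9 month replicate 5.

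Of the 5 membrane protein genes, 2 rose and 0 fell at 12 months, with 3 at an unadjusted p under 0.05, which 36.1% of all genes reached. At 9 months 3 rose and 1 fell. Over all genes, 10.9% rose and 11.5% fell at 12 months, and 11.3% and 13.6% at 9 months. Mcoln1 encodes mucolipin 1, a calcium channel of late endosomes and lysosomes, on chromosome 8 from 3500519 to 3515232; its promoter is the first printed above. It had 29.6, 31.0, 35.2 and 31.7 CPM in 12 month ovaries, against 26.6, 22.8, 26.1, 24.3 and 22.2 CPM in 3 month ovaries. It had 31.8, 29.4, 35.5, 30.02 and 28.9 CPM in 9 month ovaries, so every library of both older ages exceeded every 3 month library. The log2 change was 0.38 ± 0.08 at 12 months (edgeR adjusted p = 0.00336) and 0.35 ± 0.08 at 9 months (edgeR adjusted p = 0.00251). Mcoln1 kept both calls in all 19 fits that left out a library and under all 11 other settings, with 0.26 at 12 months after the adjustment for length and GC content.

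Lamp1, one of the most abundant glycoproteins of the lysosomal membrane, had 619, 629.8, 580.0 and 613 CPM in 12 month ovaries, against 551, 558, 537, 517 and 534 CPM in 3 month ovaries. No library overlapped, although the change was small, 0.18 ± 0.06 on the log2 scale, and close to the threshold (edgeR adjusted p = 0.0497). The call was lost in 16 of the 19 fits that left out a library (0.16 to 0.21), all but those without 9 month replicate 1, 4 or 5. In 9 month ovaries Lamp1 had 608, 656, 709, 765 and 593 CPM, all above the 3 month values, and the log2 change of 0.30 ± 0.06 (edgeR adjusted p = 0.00147) kept its call in all 19. Lamp2, its relative that also acts in chaperone-mediated autophagy, rose by 0.24 ± 0.08 at 9 months (edgeR adjusted p = 0.0312), and the call was not kept when 3 month replicate 1 or 3 or 9 month replicate 2, 3 or 4 was left out (0.20 to 0.24). At 12 months its log2 change was 0.00 ± 0.08 (95% interval -0.16 to 0.17).

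Cln3, a multipass protein of the lysosomal membrane, had 24.9, 24.8, 27.5, 28.2 and 21.5 CPM in 9 month ovaries, against 34.0, 30.5, 36.0, 25.9 and 33.6 CPM in 3 month ovaries. All 9 month values lay below those of 3 month replicates 1, 2, 3 and 5, and 3 month replicate 4 lay among them. The log2 change was -0.33 ± 0.11 (edgeR adjusted p = 0.0273) and leaving out 3 month replicate 1, 3 or 5, or 9 month replicate 1, 2 or 5, ended the call (-0.31 to -0.27). At 12 months it was -0.26 ± 0.11 (edgeR adjusted p = 0.0993), which passed without 3 month replicate 4 or 12 month replicate 4. Npc1, the cholesterol transporter of the membrane, passed at neither age, with a log2 change of 0.12 ± 0.08 at both.

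Tfeb itself, on chromosome 17 from 47737037 to 47792416, was the lowest of the 30 per length. It had 16.6, 18.7, 18.7 and 18.1 CPM in 12 month ovaries, against 10.3, 15.04, 12.0, 15.3 and 14.6 CPM in 3 month ovaries, and the groups did not overlap. It rose by 0.42 ± 0.12 (log2; edgeR adjusted p = 0.0205), and the call was lost without 3 month replicate 3 or 12 month replicate 3 (0.38 to 0.41). At 9 months its log2 change was 0.26 ± 0.12 (edgeR adjusted p = 0.117). Transcript levels do not show how much TFEB protein lies in the nucleus. Of the 9 genes with TCACGTG in the promoter, 2 rose and 0 fell at 12 months, and of the 17 with a promoter and no match 5 rose and 1 fell. At 9 months 5 of the 9 rose and 1 fell, and of the 17 without a match 12 rose and 1 fell. The shares over all genes were 10.9% risen and 11.5% fallen at 12 months, and 11.3% and 13.6% at 9 months.

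**Figure D4:**
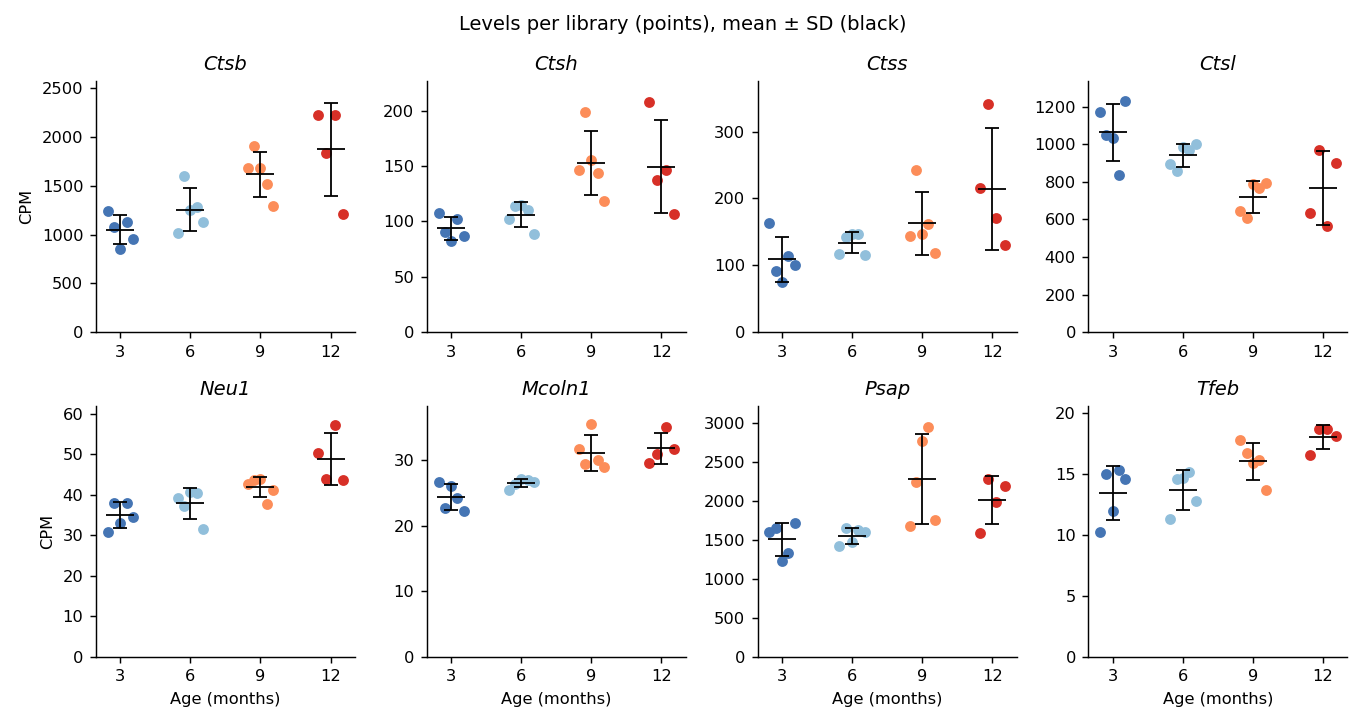
CPM of 8 lysosomal genes in every library (points) by age in months, with mean ± SD in black (n = 5, 5, 5 and 4). Ctsl is lower at 9 months than in every 3 month library, Mcoln1 is higher at 9 and 12 months than in every 3 month library, and Psap spreads from 1682 to 2960.0 CPM at 9 months.

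By 6 months no member had changed by the test. Compared with 3 months, 0 of 30 rose and 0 fell by edgeR, DESeq2 and both limma fits, where edgeR called 0.0129% of all genes as risen and 0.00644% as fallen. At an unadjusted p under 0.05 there were 2 members, against 9.85% of all genes. These were Asah1, which averaged 252 ± 24.0 CPM at 6 months and 214 ± 16.7 CPM at 3 months (SD, n = 5 each; edgeR adjusted p = 0.413), and Cln3, with means of 27.4 ± 3.00 CPM at 6 months and 32.0 ± 3.93 CPM at 3 months (edgeR adjusted p = 0.497).

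Between 12 and 9 months, a comparison without the 3 month libraries, 0 members rose and 0 fell by edgeR, DESeq2 and both limma fits; edgeR called 0.0% of all genes in either direction. The median log2 change of the members was -0.10, against 0.02 over all genes, and 10 of the 30 were above 0. At an unadjusted p under 0.05 there were 5 members, where 13.9% of all genes reached it. Of these, Glb1 (-0.35 ± 0.12), Lamp2 (-0.24 ± 0.08), Ppt1 (-0.20 ± 0.08) and Asah1 (-0.17 ± 0.08) had lower means at 12 months and Neu1 (0.22 ± 0.09) a higher one, with edgeR adjusted p of 0.233 to 0.343.

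As a linear trend over the 4 ages, given as the change over 9 months, 15 members rose and 1 fell, where 14.7% of all genes rose and 14.8% fell. The rising genes were Ctsa, Ctsb, Ctsd, Ctsh, Ctss, Ctsz, Neu1, Man2b1, Lipa, Asah1, Psap, Npc2, Lamp1, Mcoln1 and Tfeb, and Ctsl fell. Once levels were adjusted for the length and GC content of genes, 8 rose and 3 fell. Ctss had the steepest trend, 0.96 ± 0.23 (log2; edgeR adjusted p = 0.00465), and averaged 109, 134, 163 and 214 CPM at 3, 6, 9 and 12 months. Ctsb, at 0.87 ± 0.15 (edgeR adjusted p = 0.000652), averaged 1053, 1255, 1619 and 1877 CPM. Mcoln1 averaged 24.4, 26.6, 31.1 and 31.9 CPM and Neu1 34.9, 37.8, 41.8 and 48.7 CPM. The trend of Asah1 lost its call in 14 of the 19 fits that left out a library, all but those that left out replicate 2 or 3 of the 6 month libraries or replicate 2, 3 or 4 of the 12 month libraries (0.22 to 0.28 where lost). For Npc2 the trend did not pass with 3 month replicate 3, 3 month replicate 4 or 12 month replicate 4 left out (0.40 to 0.52), and that of Man2b1 without 12 month replicate 2 (0.22).

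The 9 month libraries were the most uneven. The coefficient of variation of the 30 genes had a median of 9.16%, 6.75%, 13.1% and 10.7% at 3, 6, 9 and 12 months. Replicate 4 at 9 months held the highest 9 month value of 16 members, and replicate 5 held the lowest of 20. Psap in those libraries was at 2960.0 and 1764 CPM and Lipa at 180.3 and 103 CPM. At 12 months replicate 2 held the highest value of 14 members. The 20 macrophage markers summed to 1216 CPM in 9 month replicate 4, to 769.9 CPM in 9 month replicate 5 and to 1382 CPM in 12 month replicate 2. Their highest sum, 1512 CPM, was in 9 month replicate 2, which held the highest 9 month value of 5 members. Their part in the spread was not tested.

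Macrophages, which are rich in lysosomes, were followed with a list of 20 genes, none of them at 0 in any library. Cd68, itself a lysosomal glycoprotein, is 1 of them. Of the 20, 10 rose and 0 fell at 12 months (median log2 change 0.65) and 13 rose and 0 fell at 9 months (0.62). Their summed level was 894 to 1382 CPM at 12 months, against 608 to 954 CPM at 3 months. At 9 months it was 769.9 to 1512 CPM and at 6 months 694 to 836 CPM. Cd68 had 38.0, 49.96, 42.8 and 29.7 CPM in 12 month ovaries, against 33.0, 18.8, 14.2, 19.7 and 18.9 CPM in 3 month ovaries, and rose (log2 change 0.94 ± 0.22; edgeR adjusted p = 0.00697). Csf1r, the receptor that keeps macrophages alive, rose at 9 months by 0.64 ± 0.14 (edgeR adjusted p = 0.00256) and had a log2 change of 0.33 ± 0.14 at 12 months (edgeR adjusted p = 0.103). Adgre1, the F4/80 antigen, passed at neither age, with 0.64 ± 0.24 and 0.31 ± 0.26.

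With the mean level of the macrophage list as a covariate, 2 members rose and 0 fell at 12 months, and 2 rose and 0 fell at 9 months. In that fit 4.04% of all genes rose at 12 months, so the count of members at 12 months is near that share. The members that rose were Neu1 (0.46 ± 0.12, edgeR adjusted p = 0.0247) and Mcoln1 (0.40 ± 0.10, edgeR adjusted p = 0.022) at 12 months, and Npc2 (0.69 ± 0.16, edgeR adjusted p = 0.0207) and Mcoln1 (0.36 ± 0.10, edgeR adjusted p = 0.0461) at 9 months. For Neu1 and Mcoln1 the log2 change was about as large as without the covariate, and for Npc2 it was larger (0.69, against 0.54 without it). It was smaller for Ctss at 12 months, 0.28 ± 0.20 with the covariate, and for Ctsh, 0.25 ± 0.13, and for Lipa, 0.16 ± 0.17. Ctsb was at 0.55 ± 0.18 (edgeR adjusted p = 0.0696). Tfeb and Psap kept their size and lost precision: Tfeb was at 0.42 ± 0.16 at 12 months (edgeR adjusted p = 0.1) and Psap at 0.62 ± 0.21 at 9 months (edgeR adjusted p = 0.0888). Ctsl was at -0.37 ± 0.18 at 12 months and -0.45 ± 0.18 at 9 months. The macrophage level differs with age, so the covariate takes up part of any difference between ages, and edgeR called 1369 genes at 12 months with it, against 3475 without it.

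**Figure D5:**
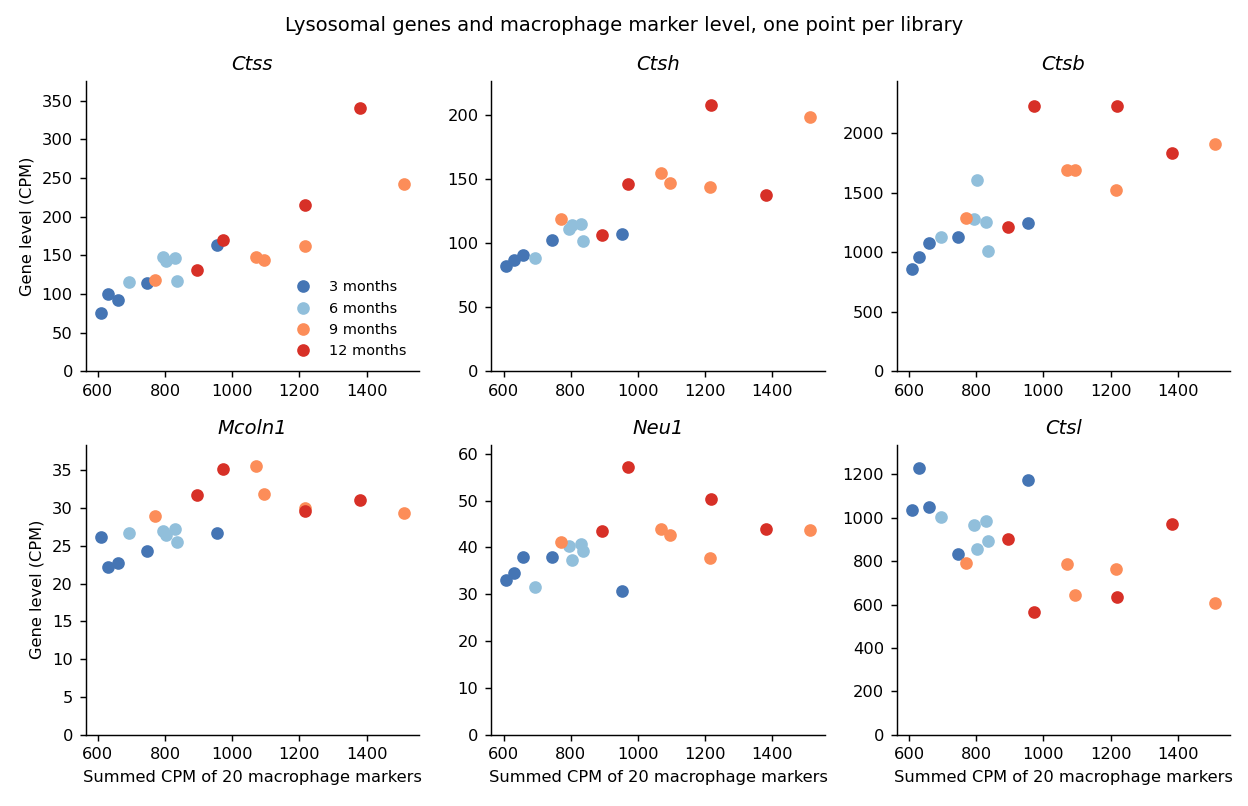
CPM of 6 lysosomal genes against the summed CPM of 20 macrophage markers, with 1 point per library coloured by age. With all ages pooled, Ctss, Ctsh and Ctsb tend to be higher in libraries with more macrophage transcripts, and these genes and the marker sum are also higher at the older ages. Within 3 months replicate 1 is highest and replicate 3 lowest in both Ctsb and the sum, and within 9 months replicate 2 is highest and replicate 5 lowest in both. At 12 months replicate 4 is lowest in both, while the highest sum is in replicate 2 and the highest Ctsb in replicate 3. At 6 months replicate 1 has the highest sum (836 CPM) and the lowest Ctsb (1013 CPM). Mcoln1 is higher in every 9 and 12 month library than in every 3 month library. Of those older libraries, only 9 month replicate 5 (769.9 CPM of markers) and 12 month replicate 4 (894 CPM) lie within the 3 month sums of 608 to 954 CPM. The part of macrophages in these levels was not tested.

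Markers of other cells changed as well. Of the 10 oocyte genes, 9 fell at 12 months (median log2 change -1.76) and 10 at 9 months (-2.08), and they summed to 17.6 to 134 CPM at 9 months, against 299 to 472 CPM at 3 months. Of the 10 granulosa cell genes, 2 fell and 0 rose at each of these ages. The 9 lymph node genes summed to 91.8 to 345 CPM at 12 months, against 65.8 to 80.4 CPM at 3 months. Without the 3 libraries over 5 CPM of Cr2, 7 members rose and 1 fell at 12 months, where 12.1% of all genes rose in that fit. At 9 months 17 members rose and 1 fell. Without those libraries Ctss had a log2 change of 0.66 at 12 months (edgeR adjusted p = 0.0374) and Ctsb 0.84 (edgeR adjusted p = 0.00598). The 8 stromal fibroblast genes summed to 4564 to 7142 CPM at 9 months, against 3479 to 4071 CPM at 3 months, with 5 risen and 1 fallen, and the 8 endothelial genes, all risen at 9 months, summed to 485 to 557 CPM, against 347 to 379 CPM. The 8 theca genes summed to 1565 to 2422 CPM at 9 months, against 1996 to 2726 CPM at 3 months, with 6 fallen. Corpus luteum genes, 10 in number, covered 6176 to 13970 CPM at 9 months and 6163 to 11510 CPM at 3 months, and 1 rose. Sums of 8 surface epithelium genes, 1 of them at 0 in all libraries, were 558 to 1095 CPM at 9 months, against 509.8 to 704 CPM at 3 months. Sums of 8 oviduct genes were 2246 to 6483 CPM, against 1868 to 3013 CPM, and most of each sum was Ovgp1 (6151 CPM in 9 month replicate 2). Of these 8 genes 1 rose at 9 months, 3 had log2 changes above 0 and the median was -0.025. The part of these cell types in the lysosomal changes was not tested.

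Other genes of the lysosome were read from 7 lists, whose counts stand beside 10.9% of all genes risen and 11.5% fallen at 12 months, and 11.3% and 13.6% at 9 months. Of 17 subunits and accessory proteins of the V-ATPase, the proton pump, 8 rose and 0 fell at 12 months with a median log2 change of 0.19, and 5 rose and 0 fell at 9 months. Among them were the membrane sector genes Atp6v0c, at 201 ± 12.5 CPM in 12 month ovaries (SD, n = 4) and 169 ± 6.35 CPM in 3 month ovaries (SD, n = 5; log2 change 0.26 ± 0.05, edgeR adjusted p = 0.00239), Atp6v0d1 (0.35 ± 0.07) and Atp6v0e (0.35 ± 0.08), and Atp6v1f of the catalytic sector (0.30 ± 0.07). Of 31 further hydrolases 11 rose and 0 fell at 12 months with a median of 0.30, and 13 rose and 2 fell at 9 months. At 12 months Fuca1, an alpha-fucosidase, rose by 0.44 ± 0.09 (log2), Naglu, an enzyme of heparan sulfate breakdown, by 0.46 ± 0.13, and Naaa, an amidase of lipid ethanolamides, by 0.63 ± 0.16.

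Of 21 further membrane proteins and cofactors 5 rose and 0 fell at 12 months (median 0.15), and 6 rose and 0 fell at 9 months. Grn, the progranulin gene, whose protein is cut to granulins in lysosomes, averaged 332 ± 31.7 CPM in 12 month ovaries and 232 ± 21.4 CPM in 3 month ovaries, with ranges that did not overlap, and rose by 0.52 ± 0.10 (edgeR adjusted p = 0.00209). The lysosomal membrane protein gene Gpr137b rose by 0.69 ± 0.20, Litaf by 0.25 ± 0.07 and the chloride-proton exchanger gene Clcn7 by 0.24 ± 0.07. Of 14 genes that sort enzymes to the lysosome 1 rose and 0 fell at 12 months (median 0.11), the clathrin adaptor subunit gene Ap1s1 (0.28 ± 0.08), and 3 rose and 1 fell at 9 months. The share at 12 months was no higher than that of all genes.

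Genes that act on TFEB were read likewise. Of 19 tested members of a list of 21 that holds the relatives of TFEB and the mTORC1 and Rag GTPase proteins, 2 rose and 0 fell at 12 months (median 0.03), a share near that of all genes. Tfec, a relative of TFEB found mainly in macrophages, was low, at 0.83 to 2.74 CPM in 12 month ovaries, against 0.29 to 0.99 CPM in 3 month ovaries, and rose by 1.49 ± 0.38 (log2; edgeR adjusted p = 0.0104). Lamtor1, which anchors the Ragulator complex to the lysosome, rose by 0.18 ± 0.06 (edgeR adjusted p = 0.0424). Of 19 autophagy genes 4 rose and 0 fell (median 0.09): Gabarap by 0.22 ± 0.06, Vps11 by 0.22 ± 0.06, Vps18 by 0.21 ± 0.07 and the late endosome GTPase gene Rab7 by 0.18 ± 0.05. Of 4 tested cathepsin inhibitors in a list of 5, 1 rose at 12 months. This was Cst7, cystatin F, an inhibitor made in immune cells, at 0.37 to 3.60 CPM in 12 month ovaries, against 0.00 to 0.15 CPM in 3 month ovaries (edgeR adjusted p = 0.0046). These levels are near 0, and at 6 months the highest was 0.58 CPM. Cst7 thus passed the filter on low counts only through the 9 and 12 month libraries, where it was high, so its call carries little weight.

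Divided by transcript length, levels over all 19 libraries spanned 690 CPM per kilobase for Psap to 6.47 for Tfeb. After Psap came Ctsl (446), Ctsd (382), Ctsb (301), Lamp1 (266) and Lamp2 (159), and at the low end Mcoln1 (13.7), Cln3 (11.2), Gla (6.51) and Tfeb. These values rest on 1 transcript chosen per gene.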

How the data were processed

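RNA of whole ovaries was sequenced in 19 libraries, placed in their age groups by the age label and matched to columns by title. Library preparation was strand-specific, per the labels' protocols. The sources used here do not name the aligner or the counter, nor whether counting used strand, so counts of overlapping or near-identical genes are uncertain. The submitters' processing notes name mm10 as the build, and gene models are RefSeq, per the file headers. The authors deposited estimated counts, not normalized, for 36172 genes (17.4% to 21.4% of nonzero values per library were whole within 1e-08). A second deposited table holds log2 values, whose normalization the sources used here do not name; from the values, each gene is set relative to its 3 month median. A single column in each table belongs to no sample given here and was left out (1 per table).

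Estimated counts were rounded to whole numbers and tested with edgeR 4.0.16 in R 4.3.3 (robust quasi-likelihood test, TMM scaling, 1 mean per age, all 19 libraries). The 15518 genes tested were those kept by filterByExpr, with a minimum count of 10 and a minimum total of 15. Adjusted p-values are Benjamini-Hochberg values over those genes, with a threshold of 0.05, and the SE is the log2 change divided by the square root of F. The 95% intervals take the log2 change as normally distributed with this SE, so they can be narrower than the F test implies. The trend was fitted on age in months. CPM values divide counts by the filtered library total times its TMM factor. The 3 month libraries enter the comparisons of 12, 9 and 6 months alike. The steps were tested on simulated counts. Libraries of 1 age were compared by a chi-square of their counts.

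The alternatives tried were DESeq2 1.42.0, its size factors within edgeR, limma 3.58.1 (voom with sample weights, and a trend fit on the authors' log2 values), no filter on low counts, CPM of 1 in 4 libraries as the filter, the ages compared alone, leaving out the 3 libraries over 5 CPM of Cr2, the mean of 20 macrophage genes as a covariate, a correction for length and GC content (splines with 5 degrees of freedom; both known for 95.7% of genes tested), an adjusted p under 0.01, and each library left out. Coordinates are RefSeq's on GRCm38.p6, and lengths are of the longest basic GENCODE transcript with a RefSeq match. The members and lists were chosen with earlier results of these data known. All 30 members are given; of each other lysosome list up to 4 genes are named, those with the smallest p at 12 months among those that passed, except for a result that is not reported here. Csf1r, Adgre1 (Emr1 in the table), Cd68, Gdf9 and Cr2 were named as markers.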

Additional observations from a re-analysis of the deposited data

Results flagged for a closer look

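The 30 members, 20 named genes of the other lists, 5 marker genes and the macrophage sum made 56 series, each with 4 age groups, and in 8 of these 224 groups 1 library stood far from the rest by Dixon's test. Chance flags about 1 in 20 groups. Among members, Tpp1 was at 142 CPM in 3 month replicate 2, where the other 3 month libraries had 116 to 122 CPM. Glb1 was at 56.4 CPM in 6 month replicate 2, where the others had 52.0 to 52.5 CPM, and Gaa was at 167 CPM in 6 month replicate 3, where the others had 156 to 159 CPM. Gusb was low, at 70.8 CPM, in 6 month replicate 1, where the others had 91.04 to 92.6 CPM. Outside the members, the V-ATPase gene Atp6v1f was low in 9 month replicate 1, at 58.5 CPM beside 68.5 to 69.9 CPM, and the adaptor gene Ap1s1 in 3 month replicate 4, at 44.3 CPM beside 54.1 to 55.6 CPM. Rab7 was low in 9 month replicate 3, at 82.7 CPM beside 90.0 to 91.7 CPM. The lymph node marker Cr2 was at 12.5 CPM in 12 month replicate 2, beside 0.52 to 0.78 CPM in the other 12 month libraries.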

How the results depend on the processing

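Of 2670 gene values compared under 11 other settings and 19 fits without 1 library, 2364 kept their direction and side of the threshold, 203 lost a call, 56 gained one and 47 changed sign; of 298 counts of members, 258 stayed within 1.5 times. No paired analysis was possible because the labels give no replicate numbers shared between ages. At 12 months 9 members rose and 1 fell; with the macrophage covariate 2 rose and 0 fell, at an adjusted p under 0.01 4 and 0, 2 fell by DESeq2 and by limma-voom, and 0 fell with the ages compared alone. At 9 months 20 rose and 2 fell; with the macrophage covariate it was 2 and 0, at an adjusted p under 0.01 10 and 1, and 1 fell by limma on the authors' log2 values and without the 3 libraries over 5 CPM of Cr2. Along the trend 15 rose and 1 fell; it was 2 and 0 with the covariate, 8 and 3 with the length and GC correction, 7 and 1 at an adjusted p under 0.01, and 2 fell by limma-voom. Without 1 library, 5 to 12 rose and 0 to 3 fell at 12 months, 14 to 22 rose and 1 to 2 fell at 9 months, and 13 to 18 rose and 1 to 3 fell along the trend.

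Over all genes, edgeR called 3475 at 12 months, 3872 at 9 months and 4576 along the trend; these counts were 1369, 911 and 1096 with the macrophage covariate and 1354, 1872 and 2349 at an adjusted p under 0.01, and 2124 at 12 months without 12 month replicate 3. For 6 against 3 months 3 genes were called, and 47 by DESeq2, 174 by limma-voom, 34 with these ages alone, 8 without the libraries over 5 CPM of Cr2, 0 by limma on the authors' log2 values, 0 at an adjusted p under 0.01, and 0 to 5 without 1 library. For 12 against 9 months 0 were called, and 252 by DESeq2, 20 with the covariate and 278 without 9 month replicate 5.

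Log2 changes that changed sign were near 0 in most cases, and 0 of the values with the other sign passed the threshold. With the macrophage covariate, those at 12 months were Ctsc -0.17, Glb1 -0.008 and Lamp2 -0.175, at 9 months Ctss -0.18, Gla -0.053 and Npc1 -0.011, and along the trend Ctsc -0.20, Glb1 -0.010, Lamp2 -0.196 and Npc1 -0.003. With the length and GC correction they were Lgmn -0.076, Glb1 -0.035, Gaa -0.118 and Smpd1 -0.023 at 12 months and Gaa -0.061 along the trend. Without the libraries over 5 CPM of Cr2 they were Lgmn -0.198 and Lamp2 -0.056 at 12 months and Ctsf 0.10 at 9 months. At 12 months Lgmn was -0.089 by limma-voom, and Lamp2 -0.005 by limma on the authors' log2 values and -0.002 with the ages compared alone. Without 1 library, the range at 12 months was -0.199 to 0.216 for Lgmn, -0.042 to 0.121 for Gaa, -0.010 to 0.103 for Ppt1 and -0.057 to 0.072 for Lamp2. At 9 months it was -0.199 to 0.018 for Ctsf, -0.007 to 0.39 for Lgmn and -0.084 to 0.101 for Gla, and along the trend -0.047 to 0.08 for Gla. The cause was not tested.

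Each member rested on at least 123 estimated counts in each library.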
